A study of Homo sapiens with 3 samples.

Results

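Metallothioneins and the zinc transport genes around them were followed in SK-Hep-1 cells, an established human liver adenocarcinoma line known for endothelial traits. The genes were chosen by symbol, as 10 named members: the metallothioneins MT1E, MT1F, MT1G, MT1M, MT1X and MT2A, the metal-sensing transcription factor MTF1, the zinc exporter SLC30A1 and the zinc importers SLC39A6 and SLC39A10. Of these, 8 were measured among the 22464 genes listed, while MT1G and MT1M were not analysed here. The samples were 3 RNA-sequencing libraries, 1 per group. The sh1089-1 and sh1089-2 lines stably carried lentiviral hairpins against the long noncoding RNA LINC01089, and the shNC line carried a negative control hairpin. The study asked how loss of LINC01089 alters gene expression. LINC01089 itself was not analysed here, so neither the depth of the knockdown nor the library labels were checked against it, and whether a line grew from a single clone is not given in the sources used here.

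Metallothioneins are small, cysteine-rich proteins that hold zinc and copper ions in the cell and buffer their free levels. When free zinc rises, MTF1 binds metal response elements in the promoters of metallothionein genes and of SLC30A1, which sends zinc out of the cell. Transporters of the SLC39 family work the other way and bring zinc into the cytosol. SLC39A6 and SLC39A10 are close relatives whose proteins can join into a heteromer. Liver cells are known for strong metallothionein induction by metals and glucocorticoids.

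The promoter sequences are shown first because MTF1 is a known regulator of metallothionein genes and SLC30A1. RefSeq windows on GRCh38.p14 were used for 6 of the 10 members, MT2A, MT1X, SLC30A1, SLC39A6, SLC39A10 and MTF1, as the 250 bases before each annotated start. The metal response element core was searched as TGCACNC and TGCGCNC on both strands, counting each strand on its own. A match is a description of the letters and not a binding site. MT2A held 7 matches, of which 5 were on the gene strand and 2 on the other. MT1X held 4, SLC30A1 and SLC39A6 held 1 each, and MTF1 and both RefSeq starts of SLC39A10 held 0. The GENCODE gene positions used below place several starts elsewhere. By those positions the MT2A window and both SLC39A10 windows lie wholly inside their genes. The windows of MT1X, SLC39A6 and MTF1 overlap their genes in part, and the SLC39A6 match lies in the overlap. For MT2A, SLC39A10 and SLC30A1, the bases directly before the GENCODE start were not searched. Among 35116 windows of the same length, 24.8% held at least 1 match, 0.37% at least 4 and 0.0313% at least 7. No matches overlapped in the members' windows. The first base of each MT2A site lies at the given distance from the start, within chr16:56608334-56608583 on the plus strand, and the site is printed with up to 6 flanking bases and the match in capitals.
MT2A at -246: ccgcTGCACCCagcccc
MT2A at -168: cggcccGTGTGCAgagccg
MT2A at -153: gccgggTGCGCCCggccca
MT2A at -139: gcccagTGCGCGCggccgg
MT2A at -88: cggggcGTGTGCAggcagc
MT2A at -54: ggctttTGCACTCgtcccg
MT2A at -8: ccgcgcTGCACTCc

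A metallothionein promoter with repeated matches and the exporter promoter with a single one follow for comparison, with matches in capitals. The MT1X stretch is chr16:56682220-56682423 on the plus strand, and the SLC30A1 stretch is chr1:211579162-211579411 on the minus strand, both 5′ to 3′ on the gene strand.
MT1X: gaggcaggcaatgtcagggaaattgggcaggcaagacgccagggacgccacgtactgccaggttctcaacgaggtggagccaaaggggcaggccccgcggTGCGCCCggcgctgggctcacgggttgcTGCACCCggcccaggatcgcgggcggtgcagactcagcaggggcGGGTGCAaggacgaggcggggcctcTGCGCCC
SLC30A1: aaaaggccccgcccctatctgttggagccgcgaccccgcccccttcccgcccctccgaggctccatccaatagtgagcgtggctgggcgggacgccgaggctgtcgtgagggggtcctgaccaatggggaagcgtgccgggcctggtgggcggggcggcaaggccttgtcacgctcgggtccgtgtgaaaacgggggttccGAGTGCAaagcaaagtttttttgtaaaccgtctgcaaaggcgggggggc

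**Figure D1:**
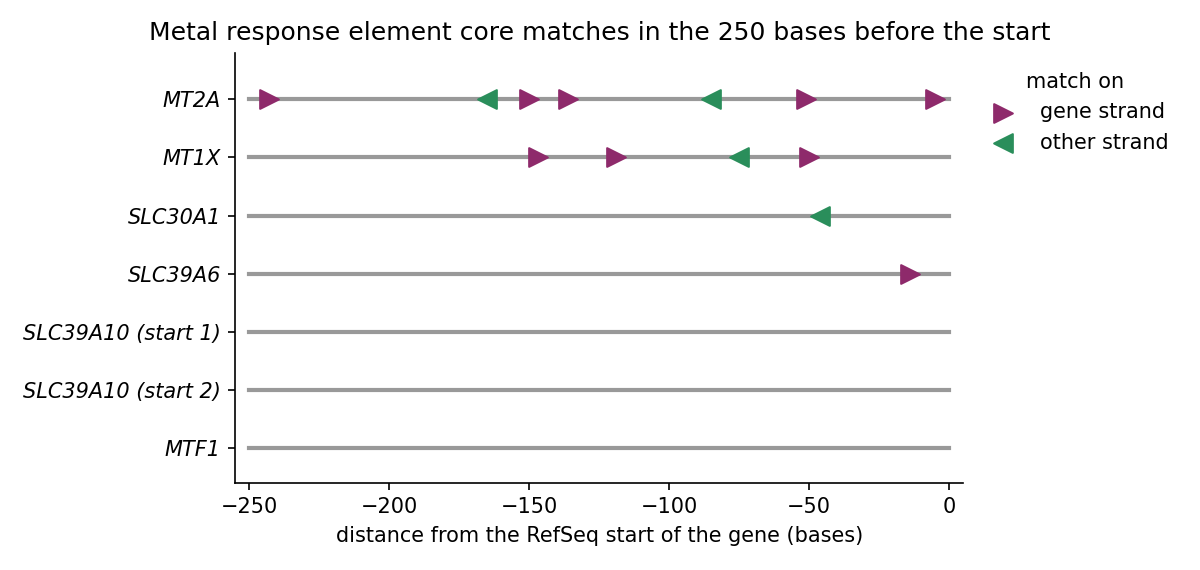
Positions of metal response element core matches (TGCACNC or TGCGCNC) in the 250 bases before the RefSeq starts of 6 member genes, with the distance from the start in bases on the x axis and arrowheads for the strand of the match. MT2A carries 7 matches spread over the window and MT1X carries 4, while SLC30A1 and SLC39A6 carry 1 each.

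Levels are given in FPKM (fragment counts divided by the length of the gene and the size of the library), the unit the authors deposited. The libraries held 9528312 reads (sh1089-1), 8359832 (sh1089-2) and 10698480 (shNC), as worked out from the steps between low FPKM values. Since each group is a single library, no replicate spread can be measured and nothing is tested. Ratios therefore carry a 95% Clopper-Pearson interval that covers counting error alone, and genes are counted by size, as past 1.5-fold in log2(FPKM + 1), among the 11198 genes with a mean of at least 1 FPKM. In bulk RNA, fewer cells of a kind and less RNA per cell cannot be told apart. The labels name the tissue as liver, but of 6 hepatocyte markers measured only SERPINA1 passed 1 FPKM (5.91, 8.004 and 4.69 FPKM in sh1089-1, sh1089-2 and shNC), and APOA1, TTR and FGB were listed at 0 throughout. The whole hepatocyte list summed to 5.93, 8.09 and 4.74 FPKM. Of 9 endothelial markers ENG and CAV1 passed 1 FPKM, and PECAM1, CDH5 and CLDN5 had at most 1 read in any library. TEK had at most 3 reads and VWF at most 4.

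MT2A dominated the metallothionein messages in every library. It had 1782 FPKM in sh1089-1 and 1282 FPKM in sh1089-2, against 1582 FPKM in shNC, which placed it 15th, 19th and 17th among the 22464 genes listed. MT1E, a metallothionein of the same cluster on chromosome 16, had 150 and 91.1 FPKM in sh1089-1 and sh1089-2, against 141 FPKM in shNC. MT2A therefore stood 11.9-fold, 14.1-fold and 11.2-fold above MT1E on the FPKM scale. MT1F and MT1X, from the same cluster, were barely detected. MT1F had 1.47 and 0.775 FPKM in sh1089-1 and sh1089-2 and 1.87 FPKM in shNC, on 26, 12 and 37 reads. MT1X had 0.486 and 0.208 FPKM in sh1089-1 and sh1089-2 and 0.649 FPKM in shNC, on 8, 3 and 12 reads, and was the one measured member below the filter on mean level. Of the summed FPKM of the 4 measured metallothioneins, MT2A made up 92.1% in sh1089-1, 93.3% in sh1089-2 and 91.7% in shNC.

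The summed metallothionein level was lower in sh1089-2 than in shNC and slightly higher in sh1089-1. It was 1934 FPKM in sh1089-1 and 1374 FPKM in sh1089-2, against 1725 FPKM in shNC. In sh1089-1 the sum was 1.12-fold higher than in shNC (1.10 to 1.14, the interval taken from the summed reads), and in sh1089-2 it was 1.26-fold lower (1.23 to 1.29). These sums took 0.179%, 0.127% and 0.160% of the reads in sh1089-1, sh1089-2 and shNC. MT2A alone was 1.13-fold higher in sh1089-1 than in shNC (1.10 to 1.15) and 1.23-fold lower in sh1089-2 (1.20 to 1.27). Neither difference of this most abundant metallothionein reached 1.5-fold.

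MT1E differed more between the lines. In sh1089-1 its ratio to shNC was 1.07 (0.993 to 1.15), an interval that includes 1, and in sh1089-2 it was 1.54-fold lower than in shNC (1.42 to 1.68). The size in sh1089-2 depended on the scale: the difference in log2(FPKM + 1) was -0.62 as deposited, -0.55 after rescaling to TPM and -0.58 after centring on the median of all genes, on both of which it no longer passed 1.5-fold. MT1F was 2.41-fold lower in sh1089-2 than in shNC (1.23 to 5.07), while in sh1089-1 its ratio was 0.789 (0.459 to 1.34). MT1F passed the filter on mean level through sh1089-1 and shNC, since it lay under 1 FPKM in sh1089-2. For MT1X, the ratios to shNC were 0.749 (0.265 to 1.99) in sh1089-1 and 0.320 (0.0579 to 1.19) in sh1089-2, intervals that include 1, so no difference could be detected on so few reads.

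**Figure D2:**
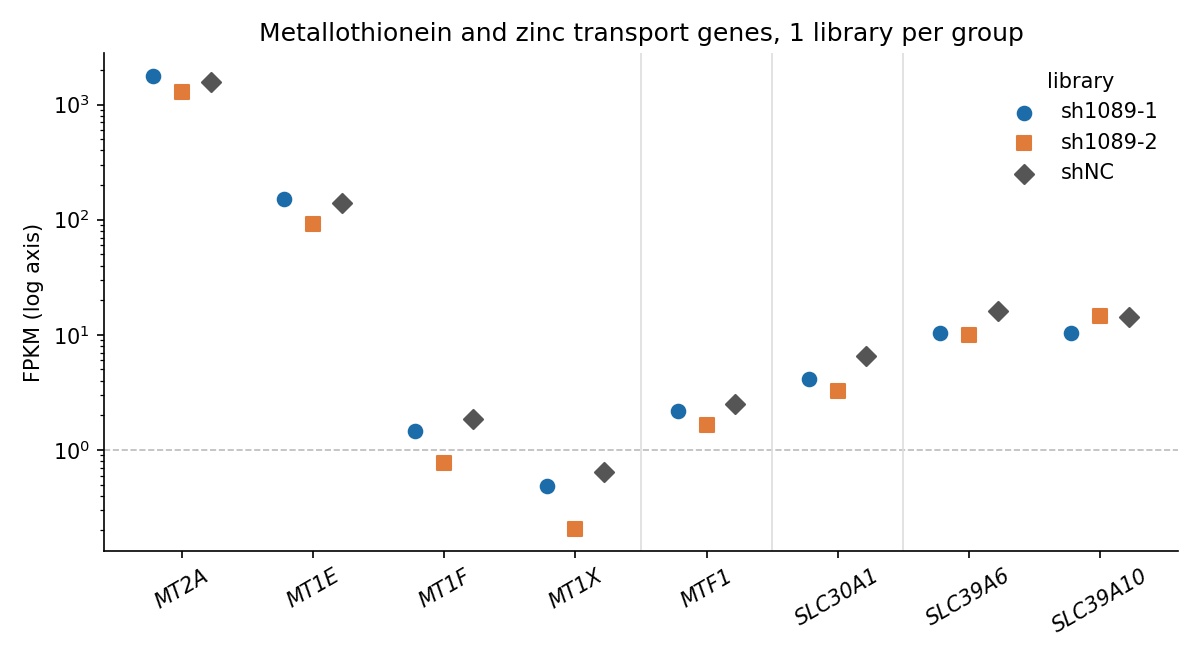
Level of each measured member in FPKM (log axis) in the sh1089-1, sh1089-2 and shNC libraries, 1 point per library, with a dashed line at 1 FPKM. MT2A and MT1E lie far above the other members, the sh1089-2 point is the lowest of the 3 for every metallothionein, and the shNC point is the highest for SLC30A1 and SLC39A6.

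The hairpin lines were also set against each other. MT1E had 91.1 FPKM in sh1089-2 and 150 FPKM in sh1089-1, a 1.65-fold lower level in sh1089-2 (1.51 to 1.80). MT2A was 1.39-fold lower in sh1089-2 than in sh1089-1 (1.36 to 1.43), and the metallothionein sum 1.41-fold lower (1.38 to 1.45). The MT1F ratio of sh1089-2 to sh1089-1 was 0.526 (0.242 to 1.08). On log2(FPKM + 1), MT1E was the 1 member past 1.5-fold, at -0.71, and MT1F stood at -0.48, which came to -0.68 in TPM and -0.85 with a pseudocount of 0.1, both past 1.5-fold. In this comparison 2.3% of all genes tested were lower to that extent and 2.47% higher.

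Metallothionein genes resemble each other, so reads could be shared among copies. Of the distinct 50-base words in the GENCODE 29 transcripts, MT2A shared 3.02% with another metallothionein gene or pseudogene, MT1E 7.1%, MT1F 1.22% and MT1X 3.64%. The pseudogene MT1L, which lies between MT2A and MT1E on chromosome 16 (56617476 to 56618818), shared 4.42%. How the authors assigned shared reads is not given in the sources used here, so the values of single copies remain uncertain. The shares of words do not give the size of that uncertainty, which also depends on how abundant the related copy is.

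MT1L was lower in both hairpin libraries than in shNC. It had 13.02 and 15.4 FPKM in sh1089-1 and sh1089-2, against 29.1 FPKM in shNC, on 51, 53 and 128 reads. It was 2.24-fold lower in sh1089-1 (1.60 to 3.16) and 1.89-fold lower in sh1089-2 (1.36 to 2.65). Relative to MT1E in the same library, MT1L stood at 8.68% in sh1089-1, 16.9% in sh1089-2 and 20.7% in shNC. Of 7 metallothionein pseudogenes listed, 6 were measured, and the others beside MT1L had at most 2 reads in any library. MT2P1, a processed pseudogene named after its values were seen, had 14.3, 9.15 and 13.8 FPKM in sh1089-1, sh1089-2 and shNC on 25, 14 and 27 reads, and shared 14.9% of its 50-base words with MT2A. Of 6 further metallothionein genes, MT4, known from skin, was measured and was listed at 0 in all 3 libraries, where a count of 0 allows up to 1.07, 1.22 and 0.954 FPKM in sh1089-1, sh1089-2 and shNC.

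Position on the chromosome was examined next, since the metallothioneins sit in 1 cluster. Of 12 protein-coding genes within 500 kb of the cluster, 9 passed the filter. On log2(FPKM + 1), 0 of the 9 were past 1.5-fold in sh1089-1 and 1 was in sh1089-2. Among all genes, 5.83% and 5.63% were lower and 5.27% and 4.89% higher to that extent. The 1 neighbour past the line was HERPUD1, which encodes a protein of endoplasmic reticulum quality control. It had 16.9 and 15.4 FPKM in sh1089-1 and sh1089-2, against 25.5 FPKM in shNC. By plain ratio HERPUD1 was 1.51-fold lower in sh1089-1 (1.39 to 1.65) and 1.66-fold lower in sh1089-2 (1.51 to 1.82). The median difference of these neighbours was -0.17 in sh1089-1 and -0.13 in sh1089-2 in log2(FPKM + 1), beside medians of -0.03 and -0.04 over all 11198 genes. The nearest neighbours before MT4, BBS2 and OGFOD1, had 4.14, 4.82 and 5.90 FPKM and 9.18, 9.91 and 11.0 FPKM in sh1089-1, sh1089-2 and shNC.

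MTF1, the zinc-sensing activator of the metallothionein genes (chromosome 1, 37809567 to 37859620), was expressed at a low level. It had 2.18 and 1.65 FPKM in sh1089-1 and sh1089-2, against 2.49 FPKM in shNC, on 166, 110 and 213 reads. In sh1089-1 the ratio to shNC was 0.875 (0.710 to 1.08), and the interval includes 1. In sh1089-2 it was 1.51-fold lower by plain ratio (1.20 to 1.92), which came to -0.40 in log2(FPKM + 1) and did not pass 1.5-fold on that scale.

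SLC30A1, the plasma membrane zinc exporter and a known target of MTF1 (chromosome 1, 211571568 to 211578742 in GENCODE 29), stood below shNC in both hairpin libraries. It had 4.11 and 3.27 FPKM in sh1089-1 and sh1089-2, against 6.57 FPKM in shNC, on 231, 161 and 414 reads. By plain ratio it was 1.60-fold lower in sh1089-1 (1.36 to 1.88) and 2.01-fold lower in sh1089-2 (1.67 to 2.43). In log2(FPKM + 1) the differences were -0.57 and -0.83, so that in sh1089-1 it fell just short of 1.5-fold, which it passed at -0.66 with a pseudocount of 0.1 and at -0.61 after rescaling to TPM. In sh1089-1 the exporter lay below shNC, and MT2A lay slightly above it. Whether MTF1 activity had a part in either difference was not tested.

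SLC39A6, a plasma membrane zinc importer known from breast cancer cells (chromosome 18, 36108532 to 36129385), was also lower in both. It had 10.5 and 9.87 FPKM in sh1089-1 and sh1089-2, against 16.3 FPKM in shNC, on 367, 304 and 641 reads. In sh1089-1 it was 1.56-fold lower (1.37 to 1.77) and in sh1089-2 1.65-fold lower (1.44 to 1.89). The difference in log2(FPKM + 1) was -0.59 in sh1089-1, which came to -0.56 and no longer passed 1.5-fold after centring on the median of all genes, and -0.67 in sh1089-2. Between the hairpin lines, the ratio of sh1089-2 to sh1089-1 was 0.944 (0.808 to 1.10).

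SLC39A10, the partner of SLC39A6 (chromosome 2, 195575977 to 195737702), did not follow it in sh1089-2. It had 10.4 and 14.6 FPKM in sh1089-1 and sh1089-2, against 14.2 FPKM in shNC, on 686, 846 and 1050 reads. In sh1089-1 it was 1.36-fold lower than in shNC (1.24 to 1.503), and in sh1089-2 its ratio was 1.03 (0.941 to 1.13). Its level in sh1089-2 was 1.41-fold that in sh1089-1 (1.27 to 1.56). The ratio of SLC39A6 to SLC39A10 in FPKM was therefore 1.00 in sh1089-1, 0.675 in sh1089-2 and 1.15 in shNC. In sh1089-2 SLC39A10 lay above SLC39A6 beyond the counting intervals of the levels, while in sh1089-1 and in shNC those intervals overlapped.

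**Figure D3:**
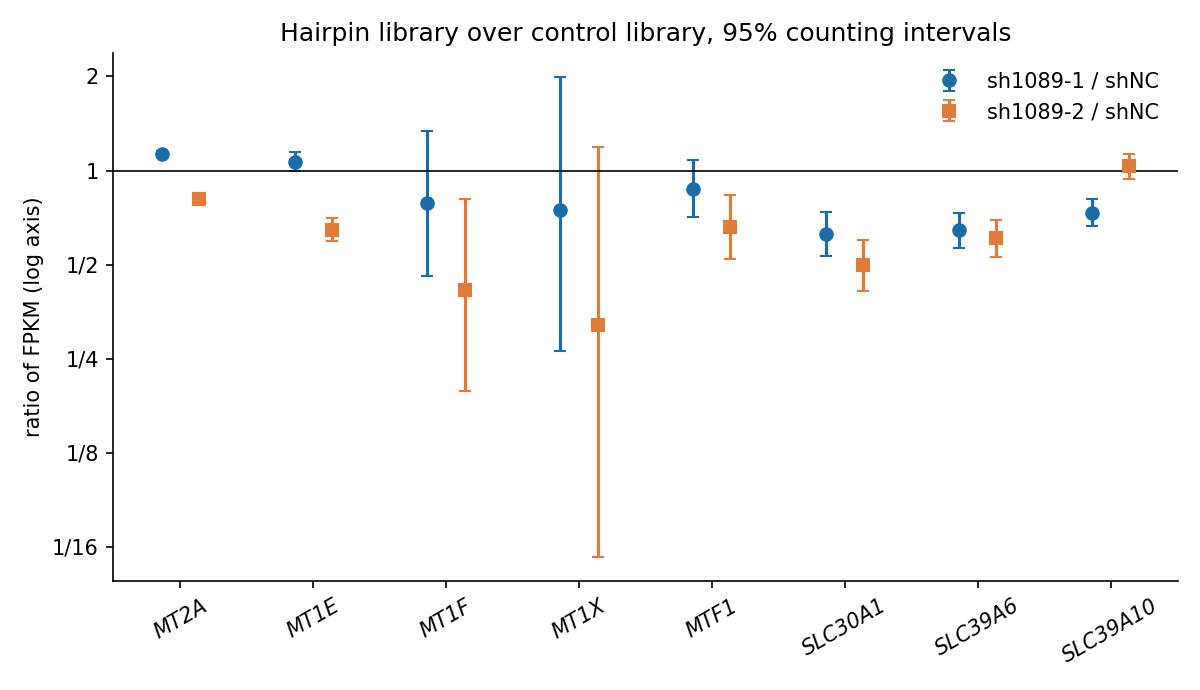
Ratio of FPKM in each hairpin library to shNC (log axis) for the 8 measured members, with 95% counting intervals as bars and a line at 1. SLC30A1 and SLC39A6 lie below 1 with both hairpins, the metallothioneins MT2A and MT1E lie above or near 1 in sh1089-1 and below 1 in sh1089-2, and MT1X has the widest intervals.

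By size, 1 of the 7 members past the filter was at least 1.5-fold lower in sh1089-1, SLC39A6, and 0 were higher. This single gene is 14.3% of the 7, and among all genes tested 5.83% were lower and 5.27% higher to that extent. In sh1089-2, 4 of 7 were lower (57.1%), MT1E, MT1F, SLC30A1 and SLC39A6, and 0 were higher, against 5.63% and 4.89% of all genes. Of these, MT1F lay under 1 FPKM in sh1089-2 and passed the filter only through sh1089-1 and shNC, where it was higher. MT1E no longer passed 1.5-fold in TPM or after centring on the median of all genes. At 2-fold in log2(FPKM + 1), 0 members were past the line in any comparison. Among all genes, 1.51% were lower and 1.38% higher by 2-fold in sh1089-1 than in shNC, 1.61% and 1.63% in sh1089-2 than in shNC, and 0.884% and 0.839% in sh1089-2 than in sh1089-1. Both comparisons use the same shNC library, so a peculiarity of that library would enter both. The members were named with results of these data known, and the counts describe them without testing them.

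The order of levels within a library was MT2A, MT1E, SLC39A6, SLC39A10, SLC30A1, MTF1, MT1F and MT1X from high to low in sh1089-1 and in shNC, and SLC39A10 and SLC39A6 changed places in sh1089-2. MTF1 and MT1F had overlapping counting intervals in sh1089-1 (1.86 to 2.54 and 0.963 to 2.16 FPKM) and in shNC (2.17 to 2.85 and 1.31 to 2.57 FPKM), and in sh1089-2 the intervals met at 1.35 FPKM. MT1F and MT1X had overlapping intervals in sh1089-2 (0.401 to 1.35 and 0.0429 to 0.607 FPKM).

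The other members of the zinc exporter family were compared with SLC30A1. SLC30A5, SLC30A6, SLC30A7, SLC30A4 and SLC30A9, which serve the secretory pathway or other organelles, passed the filter out of 9 further SLC30 genes. On log2(FPKM + 1), 0 of the 5 were past 1.5-fold in either library. Among all genes, 5.83% and 5.63% were lower and 5.27% and 4.89% higher to that extent in sh1089-1 and sh1089-2. All 5 lay below shNC in sh1089-1 and in sh1089-2, which share that control. For SLC30A4 and SLC30A9 the counting interval of the ratio included 1 in both hairpin libraries, and for SLC30A5 and SLC30A7 in sh1089-1. The share of all genes below shNC was not counted. The medians of the 5 were -0.08 in sh1089-1 and -0.26 in sh1089-2 in log2(FPKM + 1), beside -0.03 and -0.04 over all genes. SLC30A5, a Golgi zinc transporter with the highest mean of them, had 7.93 and 7.20 FPKM in sh1089-1 and sh1089-2 and 8.87 FPKM in shNC. SLC30A6, its heterodimer partner, had 3.03, 2.81 and 4.18 FPKM and came nearest to SLC30A1, at -0.36 and -0.44. By plain ratio SLC30A6 was 1.38-fold lower in sh1089-1 (1.13 to 1.70) and 1.49-fold lower in sh1089-2 (1.20 to 1.86). SLC30A3, which loads zinc into vesicles of neurons, lay below the filter on mean level, with 0.562, 1.24 and 0.485 FPKM, and was 2.56-fold higher in sh1089-2 than in shNC (1.64 to 4.08) on 62 and 31 reads. SLC30A2, SLC30A8 and SLC30A10 were listed at 0 throughout.

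Of 12 other zinc importers, 11 were measured and 8 passed the filter. SLC39A11 was the one past 1.5-fold, in sh1089-1, with 4.14 and 5.98 FPKM in sh1089-1 and sh1089-2, against 6.78 FPKM in shNC. Its difference was -0.60 in sh1089-1 and -0.16 in sh1089-2. Among all genes tested, 5.83% were lower and 5.27% higher by 1.5-fold in sh1089-1, and 5.63% and 4.89% in sh1089-2. SLC39A7, which releases zinc from the endoplasmic reticulum and Golgi and was the most abundant of the family, had 66.5, 63.4 and 69.8 FPKM in sh1089-1, sh1089-2 and shNC. SLC39A14, which also carries iron and manganese, had 24.0, 23.4 and 22.6 FPKM. SLC39A3 was higher in both libraries without passing 1.5-fold, with 7.58, 8.51 and 5.99 FPKM. The medians of these 8 importers were 0.03 in sh1089-1 and -0.11 in sh1089-2.

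**Figure D4:**
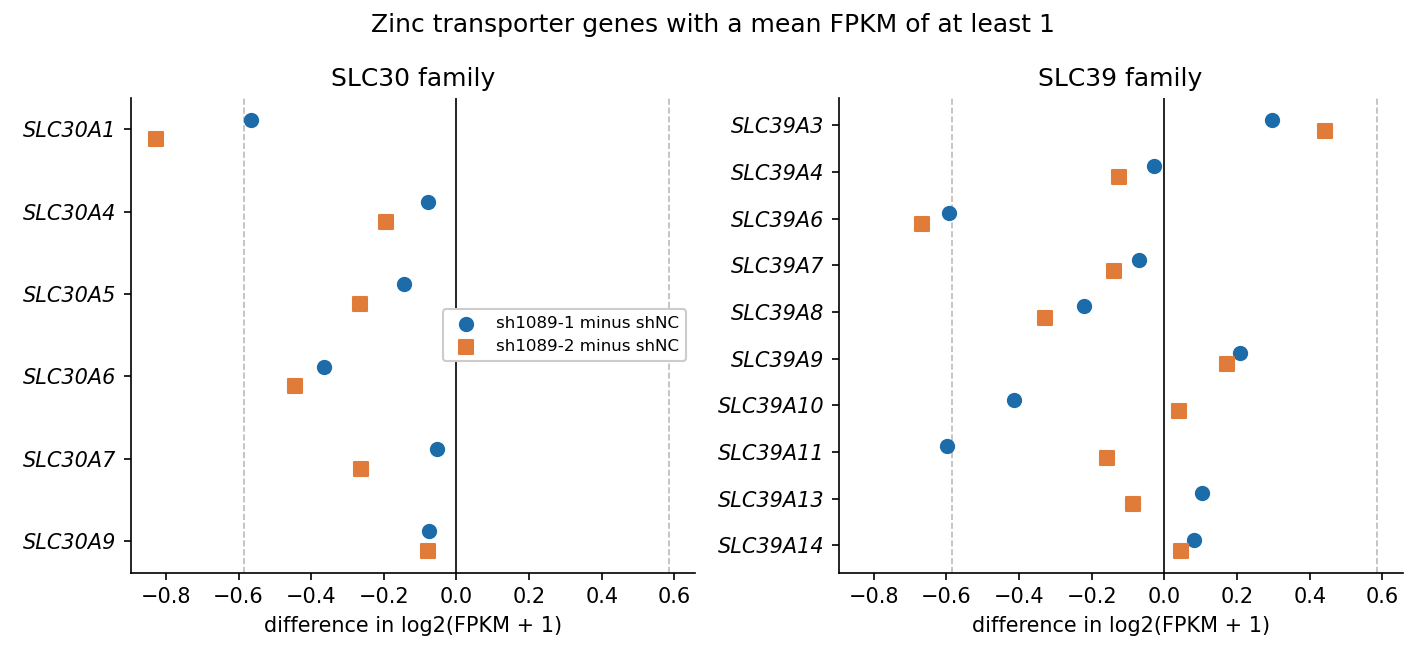
Difference in log2(FPKM + 1) from shNC of every SLC30 and SLC39 gene with a mean of at least 1 FPKM, in sh1089-1 (circles) and sh1089-2 (squares), with dashed lines at 1.5-fold in either direction. SLC30A1 at -0.83 in sh1089-2 and SLC39A6 at -0.67 in sh1089-2 lie farthest below 0 in their families, and SLC39A3 lies farthest above 0.

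Other genes known to be induced by glucocorticoids were set beside the metallothioneins. Of 8 that passed the filter, SGK1 and ERRFI1 were past 1.5-fold lower in sh1089-1 and SGK1 in sh1089-2, and 0 were higher in either. Among all genes, 5.83% and 5.63% were lower and 5.27% and 4.89% higher to that extent in the 2 libraries. In sh1089-1, 6 of the 8 lay below shNC and 2 above, and in sh1089-2, 5 lay below and 3 above. The share of all genes below shNC was not counted, so these counts have no background. The median over all genes was -0.03 in sh1089-1 and -0.04 in sh1089-2. FKBP5, a chaperone partner of the glucocorticoid receptor, had 1.49 and 1.01 FPKM in sh1089-1 and sh1089-2, against 0.774 FPKM in shNC. FKBP5 passed the filter on mean level only through the hairpin libraries, where it was higher, since it lay under 1 FPKM in shNC. By plain ratio it was 1.93-fold higher in sh1089-1 (1.47 to 2.54), which came to 0.49 in log2(FPKM + 1) and did not pass 1.5-fold. In the same library PER1 was 1.64-fold lower (1.38 to 1.95) and CEBPD 1.55-fold lower (1.30 to 1.84) by plain ratio. TSC22D3 had 1.63 and 2.86 FPKM in sh1089-1 and sh1089-2, against 2.43 FPKM in shNC, and was 1.49-fold lower in sh1089-1 (1.11 to 2.02). NFKBIA, an inhibitor of NF-kB, had 18.3 and 17.9 FPKM, against 16.5 FPKM in shNC. SGK1, a kinase of ion transport, had 12.7 and 16.7 FPKM in sh1089-1 and sh1089-2, against 28.7 FPKM in shNC. ERRFI1, a feedback inhibitor of the EGF receptor, had 45.4 and 54.8 FPKM, against 76.4 FPKM in shNC. DUSP1, the most abundant of the list, had 66.7 and 82.7 FPKM, against 91.2 FPKM in shNC. The list's medians were -0.51 in sh1089-1 and -0.08 in sh1089-2 in log2(FPKM + 1), and any part of glucocorticoid signalling in the metallothionein levels was not tested.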

How the data were processed

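The authors deposited 1 table of FPKM values for 3 libraries. Per the labels' protocols, mRNA was enriched from total RNA and libraries were strand-specific. FastQC, StringTie and GRCh38 are named in the submitters' processing notes without versions, and no source used here gives the aligner, the annotation release or the strand setting. Symbols came from a gene table, matched for 20952 of 22464 identifiers, and gene positions from GENCODE 29 on GRCh38. Library totals and reads were recovered from the steps of the FPKM values: a whole gene length giving whole reads, within 1.5 times the rounding of the deposited decimals, was found for 99.9% of 19204 genes. That length equalled the GENCODE 29 exon length for 62.0%, and the nearest fitting length was taken. For MT2A the length so found was 914 bases (1299 in GENCODE 29), and such lengths enter every FPKM. A count of 0 was read as up to 3 reads, and without molecular identifiers every interval and floor covers counting error alone. Differences used a pseudocount of 1 and a filter at a mean of 1 FPKM. All members were named. Of related lists, those past 1.5-fold or most abundant were named by rule. Further genes of those lists were named outside that rule, with their values known. The members and lists were chosen with earlier results of these data known. No p-value was computed, since each group is 1 library. Python 3.11.15, scipy 1.17.1 and pandas 2.3.3 were used.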

Additional observations from a re-analysis of the deposited data

How the results depend on the processing

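No paired analysis was possible because each group is 1 library. For the ratio of the metallothionein sum to shNC, the value of 1.12 in sh1089-1 came to 1.15 after dividing by the library median and 1.06 without MT2A. The value of 0.796 in sh1089-2 came to 0.836 in TPM, 0.822 after dividing by the library median and 0.643 without MT2A. Between the hairpins, 0.710 came to 0.734 in TPM and 0.606 without MT2A. None of these changed direction. The count of members lower by 1.5-fold in sh1089-1, 1 as reported, was 2 with a pseudocount of 0.1, 2 in TPM, 0 after centring on the median of all genes and 0 at 2-fold. In sh1089-2, the count of 4 was 3 in TPM, 3 after centring, 2 at a mean of at least 5 FPKM and 0 at 2-fold. Between the hairpins, the count of 1 was 2 with a pseudocount of 0.1, 2 in TPM and 0 at 2-fold. The causes were not tested. Of 63 single values recomputed, 0 changed sign and 7 crossed 1.5-fold. MT1F and MT1X rest on at most 37 reads. Leaving out a library was not possible with 1 library per group.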

Other observations

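Genes that handle copper, the other main metal of metallothioneins, differed from shNC in both directions. Of 10 that passed the filter, 0 were past 1.5-fold on log2(FPKM + 1) in sh1089-1 or sh1089-2, where 5.83% and 5.63% of all genes were lower and 5.27% and 4.89% higher, and the medians were 0.10 and -0.03 in log2(FPKM + 1). SOD1, the copper and zinc superoxide dismutase, had 83.1, 81.3 and 82.7 FPKM in sh1089-1, sh1089-2 and shNC. STEAP3, a metalloreductase, had 25.5 and 24.7 FPKM in sh1089-1 and sh1089-2, against 35.3 FPKM in shNC, and SCO1, a mitochondrial copper chaperone, had 14.4 and 12.1 FPKM, against 9.32 FPKM in shNC. By plain ratio SCO1 was 1.55-fold higher in sh1089-1 (1.43 to 1.68). SLC31A2, a copper transporter relative, was 1.69-fold higher in sh1089-2 (1.20 to 2.38), and ATP7B, a copper-exporting ATPase, 1.43-fold higher (1.20 to 1.71). In the other direction, STEAP3 was 1.385-fold lower in sh1089-1 (1.28 to 1.49) and 1.43-fold lower in sh1089-2 (1.32 to 1.55).

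The 5 genes nearest to MT2A in their pair of differences from shNC, among 4045 genes with a mean of at least 10 FPKM over the 3 libraries, were RSL24D1, VPS18, NOL11, PABPN1 and MYL6B, at distances of 0.036 to 0.044 in log2(FPKM + 1). RSL24D1, a ribosome assembly factor, had 34.4 and 25.3 FPKM in sh1089-1 and sh1089-2, against 31.1 FPKM in shNC.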
